A study of Homo sapiens with 60 samples.

Results

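Cells of HepG2, an established line from a human liver tumour with many traits of hepatocytes, were exposed for 24 h to 56 µg/mL of an ethanol extract of Bupleuri Radix, the dried root of Bupleurum, and set against cells given the DMSO vehicle. The comparison takes 6 of the 60 libraries of the series, 3 of the medium dose and 3 of the vehicle, chosen by their titles and treatment labels. To separate changes that go on with dose from changes common to a set of libraries, it draws on Bupleuri Radix at 280 µg/mL and at 11.2 µg/mL and on the lowest dose of Aconiti Lateralis Radix Preparata, 20 µg/mL, each with 3 libraries after 24 h. By the dose rule of the series text, 280 µg/mL was the concentration that inhibited growth by 20%. Vehicle cells received 0.1% DMSO by their treatment label, whereas the text of the series speaks of 2%, a difference that was not settled here.

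The first part of the sample code in the titles is 13 for the Bupleuri and Aconiti libraries and D1 for the vehicle, and is called the set here. All titles name the same batch, D. Set and extract cannot be told apart in any comparison with vehicle, whereas comparisons between Bupleuri doses, or of Bupleuri with Aconiti, stay within set 13. Aconiti at 20 µg/mL is another extract and no vehicle, so a difference from it can come from either extract. Whether replicates were grown as separate cultures is not stated, so each p-value reflects the spread of these libraries only, and that spread may be technical. The medium libraries held 24617754 to 27481254 counts and the vehicle libraries 20991532 to 24070592. In replicate 3 of Bupleuri at 11.2 µg/mL long transcripts differed from short ones by -0.24 on the log2 scale. In the other libraries of set 13 and the vehicle this difference was -0.025 to 0.027. The main counts for the 56 µg/mL libraries are given with and without that replicate, and counts in gene lists with it unless stated. Mitochondrial rRNA took 2.77 ± 0.186% of counts at 56 µg/mL and 2.525 ± 0.076% in vehicle (SD, n = 3 each).

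Hepatocyte markers were abundant in both groups. Their 10 genes summed to 45600 to 46700 counts per 1000000 (CPM) at 56 µg/mL and 45400 to 46100 CPM in vehicle. Marker sums in this paragraph were scaled by total counts only, whereas CPM of single genes below are TMM-scaled. Leukocyte markers summed to 1230 to 1340 CPM and 1390 to 1420 CPM, with PTPRC and CD3E at 0 in both. Fibroblast markers summed to 50.4 to 53.2 CPM and 60.3 to 63.3 CPM, with COL1A2, DCN and LUM at 0, and endothelial markers to 4.04 to 5.3 CPM and 3.74 to 4.29 CPM, with KDR and CLEC4M at 0. Bile duct markers summed to 1010 to 1100 CPM and 1080 to 1090 CPM, with CFTR at 0, each at 56 µg/mL and in vehicle. In bulk RNA fewer cells of a type and less RNA per cell cannot be told apart.

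Liver cells answer foreign compounds through a few well known programmes. The aryl hydrocarbon receptor (AhR) switches on CYP1A1, NRF2 switches on antioxidant and NADPH-producing genes, and ATF4 drives amino acid synthesis and transport genes under stress. SREBP2 adjusts cholesterol synthesis to the sterol content of membranes, and the unfolded protein response adjusts the chaperones of the endoplasmic reticulum (ER). Bupleuri Radix is known for its triterpenoid saponins, the saikosaponins.

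The promoters of 3 genes that differed at 56 µg/mL both from vehicle and from Aconiti are shown because each is a textbook target of such a programme. They are RefSeq sequences of GRCh38.p14, from 250 bases before to 50 bases after the gene's start, all on the minus strand and written 5′ to 3′. HSPA5 encodes the main ER chaperone, BiP, and its window lies at chr9:125241294-125241593. Capitals mark its 1 match to the ER stress element, CCAAT and CCACG with 9 bases between them, searched on both strands and present in 0.0769% of 35116 promoters of this length.
HSPA5: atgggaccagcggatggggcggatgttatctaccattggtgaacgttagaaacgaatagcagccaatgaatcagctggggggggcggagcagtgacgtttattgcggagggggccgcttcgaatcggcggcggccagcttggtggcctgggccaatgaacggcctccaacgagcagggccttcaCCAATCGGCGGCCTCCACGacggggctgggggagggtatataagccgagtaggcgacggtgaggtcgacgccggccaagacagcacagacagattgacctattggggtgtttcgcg
ASNS encodes asparagine synthetase, and its window lies at chr7:97872359-97872658. Capitals mark the amino acid response motif TGATGAAAC, found on either strand in 0.225% of promoters.
ASNS: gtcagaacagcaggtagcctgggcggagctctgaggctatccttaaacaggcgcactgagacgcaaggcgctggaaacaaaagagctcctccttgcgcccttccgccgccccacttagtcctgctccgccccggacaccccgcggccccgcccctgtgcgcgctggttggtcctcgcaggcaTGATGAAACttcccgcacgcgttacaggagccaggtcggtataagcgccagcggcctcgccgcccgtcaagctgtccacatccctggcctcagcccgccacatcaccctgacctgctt
HMGCS1 encodes the cytosolic HMG-CoA synthase of cholesterol synthesis, and its window lies at chr5:43313363-43313662. Capitals mark its 2 matches to ATTGG or its complement CCAAT, the NF-Y motif, which 34.6% of promoters held and which overlaps the first letters of the ER stress element.
HMGCS1: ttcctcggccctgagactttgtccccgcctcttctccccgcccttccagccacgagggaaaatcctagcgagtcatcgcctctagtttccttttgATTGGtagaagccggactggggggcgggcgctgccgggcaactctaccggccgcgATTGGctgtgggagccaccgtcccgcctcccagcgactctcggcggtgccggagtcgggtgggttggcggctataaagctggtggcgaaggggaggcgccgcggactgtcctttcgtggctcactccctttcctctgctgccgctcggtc
The SREBP letters TCACNCCAC, present in 1.13% of promoters, did not occur in the HMGCS1 window, and the ATF4 letters TGATGCAA, present in 0.866%, did not occur in that of ASNS. The ER stress element and the amino acid response motif were chosen after the values were seen. A match describes these letters and is no measured binding site.

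At 56 µg/mL many genes differed from vehicle by little. Of 16675 tested genes 907 were higher (5.44%) and 915 lower (5.49%), 10.9% in all, at an adjusted p under 0.05 in edgeR's quasi-likelihood test, which is what "called" means below. The median absolute log2 fold change of the called genes was 0.26, and 1624 of the 1822 (89.1%) differed by less than 1.5-fold. Just inside the threshold lay DYNC2I2 (log2 fold change 0.24) and PCMTD2 (-0.14), and just outside it ERAP2 (-0.17) and G3BP1 (-0.10). Without replicate 3 of 11.2 µg/mL, whose spread enters the shared estimate, 1545 genes were higher (9.27%) and 1483 lower (8.90%), 18.2% in all and with all of the 1822 among them. Without vehicle replicate 1, 993 were called, without vehicle replicate 2, 1176, and without medium replicates 2 and 3 in turn, 1112 and 1137.

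Against 280 µg/mL the medium dose stood far apart: 2745 genes were higher (16.5%) and 2421 lower (14.5%) at 280 than at 56 µg/mL, 31.0% of those tested, and 37.3% without replicate 3 of 11.2 µg/mL (19.2% higher, 18.1% lower). Against Aconiti at 20 µg/mL it stood close, with 2 genes higher (0.0120%) and 21 lower (0.126%) at 56 µg/mL, 0.138% in all, while 936 genes had an unadjusted p under 0.05. Without replicate 3 of 11.2 µg/mL the calls against Aconiti were 15 higher (0.0900%) and 73 lower (0.438%), 0.528% in all. Without medium replicates 1, 2 and 3 in turn 10, 10 and 4 genes were called against Aconiti, and without its replicates 10, 12 and 7. Against 11.2 µg/mL, 221 genes were higher (1.33%) and 309 lower (1.85%) at 56 µg/mL, 3.18% in all. Without that replicate 27 were higher (0.162%) and 41 lower (0.246%), 0.408% in all, and without replicates 1 and 2 of 11.2 µg/mL in turn 4715 and 4098 were called. Without medium replicates 1, 2 and 3 in turn the count was 129, 93 and 118.

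**Figure D1:**
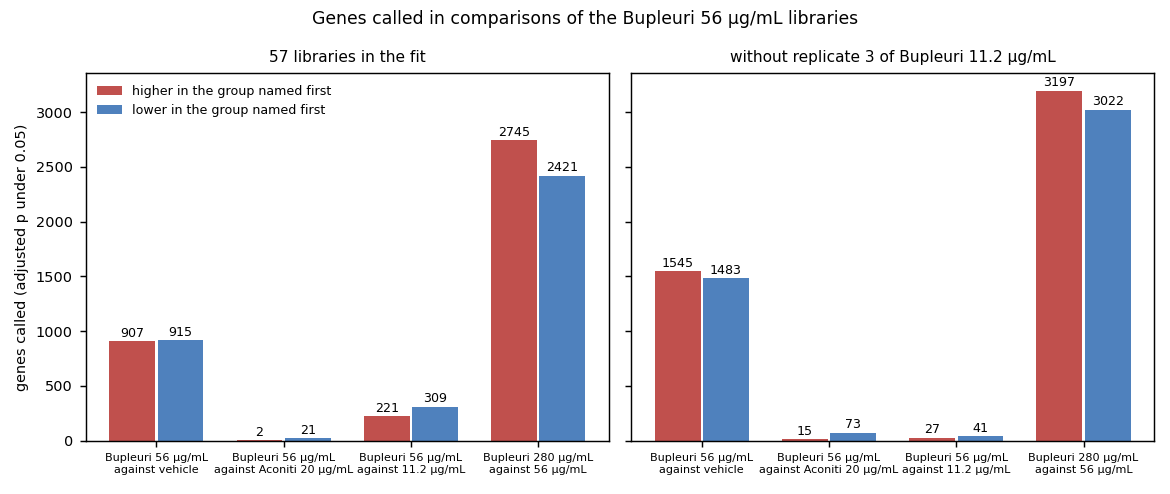
Bars count the genes called higher (red) and lower (blue) in the group named first, for 4 comparisons of the 56 µg/mL libraries, with all 57 libraries of the fit (left) and without replicate 3 of 11.2 µg/mL (right). The vehicle comparison gave 907 and 915 genes and the Aconiti comparison 2 and 21 on the left, and 1545 and 1483 against 15 and 73 on the right.

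Direction against vehicle moved with the GC content of transcripts. In the tercile of genes with the lowest GC content the median log2 fold change at 56 µg/mL against vehicle was -0.073, with 29 genes called higher and 561 lower. The middle tercile had a median of -0.009 with 159 higher and 286 lower, and the highest a median of 0.105 with 716 higher and 66 lower. Aconiti at 20 µg/mL, set against the same vehicle libraries, had medians of -0.087, -0.01 and 0.122. Within the set the medians were 0.011, 0.0 and -0.016 for 56 µg/mL against Aconiti, and -0.017, -0.015 and 0.026 for 280 against 56 µg/mL. With offsets on GC content and length in the fit, 1220 genes were called against vehicle.

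**Figure D2:**
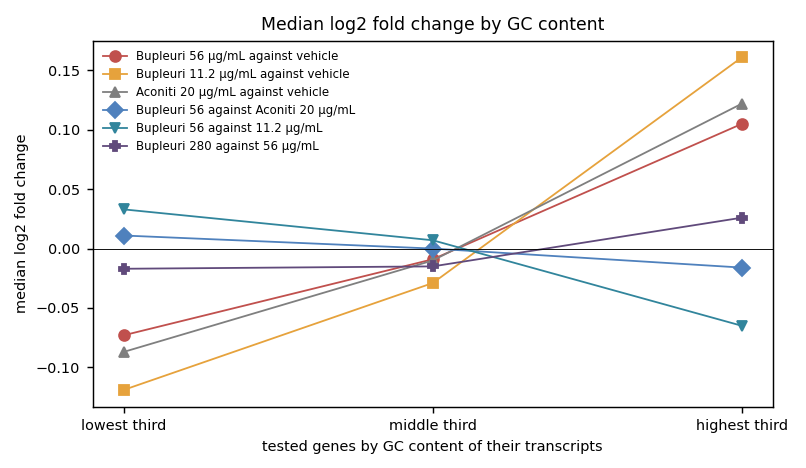
Points give the median log2 fold change of tested genes in 3 groups of equal size by GC content of their transcripts, for 6 comparisons. The 3 comparisons with vehicle lie between -0.119 and -0.073 at the lowest GC content and between 0.105 and 0.161 at the highest, and the 3 within set 13 between -0.017 and 0.033 and between -0.065 and 0.026.

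Genes called against vehicle fell into 3 kinds by what they did at 280 µg/mL. Of the 1822, 460 (25.2%) were called again in the same direction between 280 and 56 µg/mL, 222 higher and 238 lower, and are called continuing. Against vehicle the 222 had a median log2 fold change of 0.24 at 11.2 µg/mL, 0.30 at 56 µg/mL, 0.77 at 280 µg/mL and 0.25 with Aconiti. At the lowest doses of 4 extracts of other sets it was 0.18 to 0.23. For the 238 the medians were -0.16, -0.22, -0.52 and -0.17, and -0.16 to -0.11 in the other sets. All these groups share the vehicle libraries. The second step of the 460 was larger than the first for 323 genes. Another 367 (20.1%) turned, called in the opposite direction between 280 and 56 µg/mL, and 995 (54.6%) were not called between those doses. The 56 µg/mL libraries enter both comparisons with opposite sign, so an error in them moves a gene towards turning. At 280 µg/mL against vehicle, where 19.9% of all genes were called higher and 19.1% lower (38.9% in all), 101 of the turning genes were called on the opposite side, 10 on the same side and 256 on neither. Without replicate 3 of 11.2 µg/mL there were 798 continuing and 703 turning genes, which included all 460 and all 367. Without medium replicates 2 and 3 in turn there were 266 and 282 continuing and 225 and 207 turning genes, and without vehicle replicates 1 and 2, 274 and 297 continuing genes. Without vehicle replicate 1 there were 211 turning genes.

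Of the continuing genes 10 also differed from Aconiti at 20 µg/mL in the direction in which they differed from vehicle, a criterion added after the values were seen. SQSTM1 and CPT1A were higher, and SERPINA7, SGK1, HSPA5, SELENOP, CFB, BMP4, MATN3 and NFE2 were lower. Without replicate 3 of 11.2 µg/mL there were 30, with all 10 among them. It was 5, 3 and 2 without medium replicates 1, 2 and 3 in turn, 5, 5 and 3 without those of Aconiti, and 9, 8 and 9 without those of vehicle. In an edgeR fit of the set and vehicle libraries alone it was 0, where 650 genes had an unadjusted p under 0.05 against Aconiti, and 60 in that fit without replicate 3 of 11.2 µg/mL.

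SQSTM1 (ENSG00000161011, chr5:179806398-179838078, GRCh38) encodes p62, an autophagy receptor that is induced by NRF2 and feeds back on it. It stood at 311, 318 and 309 CPM at 56 µg/mL, against 228, 233 and 238 CPM in vehicle and 266, 270 and 265 CPM with Aconiti. Each medium library lay above each library of either group, as 39.0% of all tested genes did not overlap between 56 µg/mL and vehicle, and the 280 µg/mL libraries were higher still, at 925, 952 and 934 CPM. The log2 fold change was 0.43 ± 0.05 (SE) against vehicle (adjusted p 1.2e-07), 0.23 ± 0.05 against Aconiti (0.0275) and 1.58 ± 0.05 for 280 against 56 µg/mL (1.5e-27). The call against Aconiti was lost in 7 of 14 alternatives, when any 1 medium or Aconiti library was left out (adjusted p 0.112 to 0.195) and in the fit of the set and vehicle libraries alone (0.543), while that against vehicle held in all 15 alternatives. CPT1A (ENSG00000110090, chr11:68754620-68844410), which admits long-chain fatty acids to mitochondria, stood at 47.3, 45.0 and 42.6 CPM at 56 µg/mL, against 39.5, 38.5 and 40.5 CPM in vehicle and 38.7, 35.5 and 37.3 CPM with Aconiti. The medium libraries lay above both groups, and the 280 µg/mL libraries at 96.6, 97.5 and 98.1 CPM. Its log2 fold change was 0.19 ± 0.06 against vehicle (adjusted p 0.0337), a call lost in 8 of 15 alternatives (up to 0.167), and 0.27 ± 0.06 against Aconiti (0.0283), a call lost in 7 of 14 alternatives (up to 0.501).

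SERPINA7 (ENSG00000123561, chrX:106032442-106038738) encodes thyroxine-binding globulin, a hormone carrier secreted by the liver. It stood at 114, 112 and 108 CPM at 56 µg/mL, against 140, 137 and 139 CPM in vehicle and 133, 134 and 136 CPM with Aconiti. The medium libraries lay below both groups, and the 280 µg/mL libraries at 52.0, 50.5 and 50.5 CPM. The log2 fold change was -0.31 ± 0.04 against vehicle (adjusted p 7.0e-07), -0.27 ± 0.04 against Aconiti (5.8e-04) and -1.13 ± 0.04 for 280 against 56 µg/mL. SGK1 (ENSG00000118515, chr6:134169246-134318112), a kinase induced by serum and glucocorticoids that controls ion transport, stood at 43.6, 44.4 and 44.1 CPM at 56 µg/mL, against 60.5, 54.9 and 55.2 CPM in vehicle and 53.8, 53.5 and 52.7 CPM with Aconiti. All 3 medium libraries lay below all 6 others. For SGK1 the log2 fold change was -0.37 ± 0.04 against vehicle (adjusted p 2.4e-07), -0.28 ± 0.04 against Aconiti (8.4e-04) and -0.76 ± 0.05 for 280 against 56 µg/mL. The calls of both genes against Aconiti were lost in 1 of 14 alternatives, the fit of the set and vehicle libraries alone (adjusted p 0.0628 for SERPINA7 and 0.215 for SGK1).

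HSPA5, whose promoter with the ER stress element is shown above, stood at 1270, 1220 and 1250 CPM at 56 µg/mL, against 1480, 1470 and 1460 CPM in vehicle and 1400, 1380 and 1410 CPM with Aconiti. The 3 groups did not overlap, and the 280 µg/mL libraries were lower again, at 1040, 978 and 1040 CPM. Its log2 fold change was -0.23 ± 0.03 against vehicle (adjusted p 3.9e-06, and 0.0506 with GC and length offsets), -0.16 ± 0.03 against Aconiti (0.0166, lost in 8 of 14 alternatives) and -0.29 ± 0.03 for 280 against 56 µg/mL. SELENOP, the plasma selenium carrier made by the liver, stood at 1130, 1100 and 1150 CPM at 56 µg/mL, against 1350, 1330 and 1320 CPM in vehicle and 1270, 1300 and 1330 CPM with Aconiti. It too was lower in every medium library (-0.24 ± 0.04 against vehicle, adjusted p 6.8e-05), and fell by a further 0.27 on the log2 scale at 280 µg/mL. CFB, complement factor B, and BMP4, a secreted growth factor of the TGF-beta family, had log2 fold changes of -0.19 ± 0.04 and -0.15 ± 0.04 against vehicle, both lost without a filter on low counts (adjusted p 0.0631 and 0.247). MATN3, a matrilin of the extracellular matrix, was at -0.46 ± 0.06. NFE2, a transcription factor best known from blood cells, was at -0.51 ± 0.13 and low throughout, at 2.14 to 2.93 CPM at 56 µg/mL and 3.18 to 4.0 CPM in vehicle. Its call was lost against vehicle in 4 of 15 alternatives (up to 0.0891) and against Aconiti in 5 of 14 (up to 0.392). Against Aconiti the calls of SELENOP, CFB, BMP4 and MATN3 were lost in 7 of 14, 5 of 14, 8 of 14 and 3 of 14 alternatives.

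**Figure D3:**
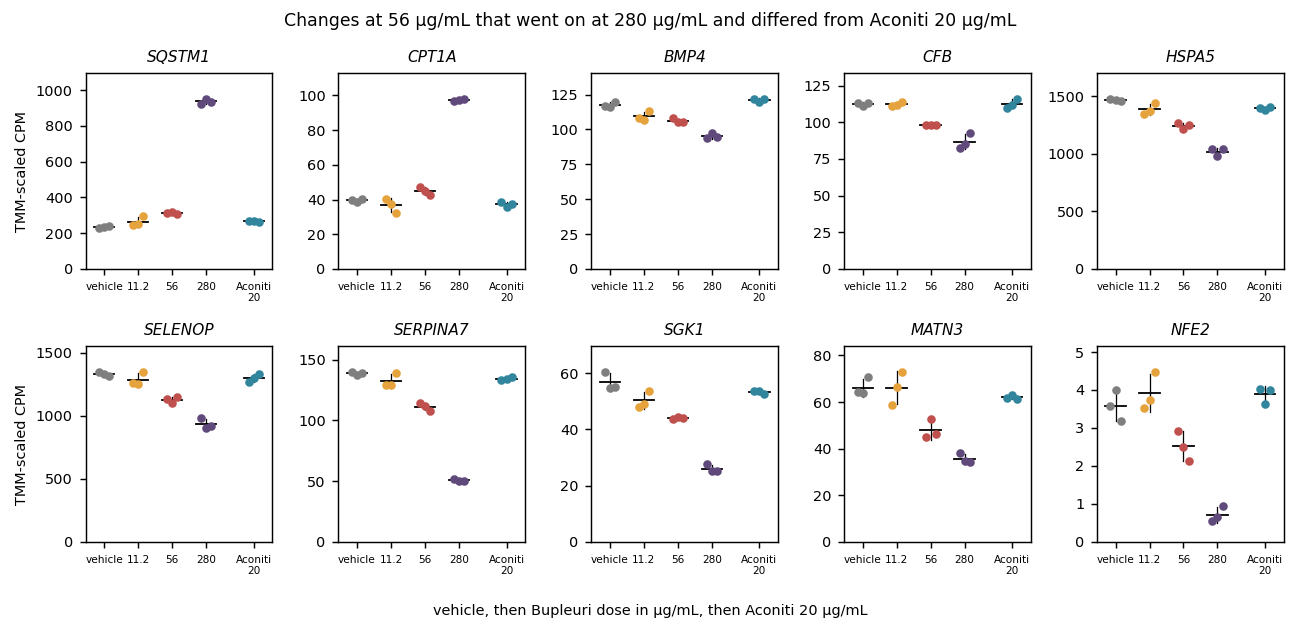
Points are single libraries of the 10 genes in TMM-scaled CPM, in vehicle, Bupleuri at 11.2, 56 and 280 µg/mL and Aconiti at 20 µg/mL, with the mean and SD of each group as a bar and a line. In each panel the 56 µg/mL points lie off both the vehicle and the Aconiti points on the side of those of 280 µg/mL, as for SERPINA7 at 108 to 114 CPM against 137 to 140 CPM in vehicle.

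A continuing gene that was also called in the same direction between 56 and 11.2 µg/mL was counted as graded. There were 61, 28 higher and 33 lower, but 32 without replicate 3 of 11.2 µg/mL, with 19 in both counts. In the fit of the set and vehicle libraries alone there were 10, and with offsets on GC content and length 106. Without medium replicates 1, 2 and 3 in turn there were 23, 19 and 22, and without vehicle replicate 1 there were 40. CYP1A1 (ENSG00000140465, chr15:74719542-74725610), the AhR-induced enzyme, stood at 19.7, 18.5 and 17.1 CPM at 56 µg/mL, against 12.6, 13.7 and 12.4 CPM in vehicle. Every medium library was above every vehicle library, and at 280 µg/mL the gene stood at 123, 132 and 119 CPM. The log2 fold change was 0.52 ± 0.14 against vehicle (adjusted p 0.0108) and 2.76 ± 0.12 for 280 against 56 µg/mL. Against vehicle the call was lost without medium replicate 1 (0.0511) or vehicle replicate 1 (0.0509), and against Aconiti CYP1A1 was at 0.39 ± 0.13 (adjusted p 0.478). Its step between 56 and 11.2 µg/mL (adjusted p 0.0307), and with it the graded class, was lost without replicate 3 of 11.2 µg/mL (0.271). Of 8 AhR targets CYP1A1 alone was called against vehicle (median of the list 0.03, 10.9% of all genes called). At 280 against 56 µg/mL 4 of them were higher (16.5% of all genes).

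The other graded rises that were named stood at 0.56 ± 0.08 for SLC16A6, a monocarboxylate transporter family member, 0.51 ± 0.10 for the diacylglycerol lipase DAGLA, 0.50 ± 0.05 for FLCN, which acts on nutrient signalling at lysosomes, 0.40 ± 0.12 for the P450 gene CYP2S1 and 0.39 ± 0.06 for UAP1L1, all on the log2 scale against vehicle. Without replicate 3 of 11.2 µg/mL DAGLA and CYP2S1 were no longer graded (adjusted p 0.178 and 0.15 between 56 and 11.2 µg/mL), and CYP2S1 lost its call against vehicle in 4 of 15 alternatives (up to 0.136). FLCN stood at 35.5 to 36.2 CPM at 56 µg/mL and 24.4 to 26.2 CPM in vehicle, with Aconiti at 32.7 to 33.7 CPM. SLC16A6 stood at 25.5 to 27.3 CPM at 56 µg/mL and 17.3 to 18.6 CPM in vehicle. With Aconiti it was as high, at 26.5 to 28.4 CPM, and called against vehicle (0.62 ± 0.08). DAGLA, CYP2S1 and UAP1L1 were at 0.28, 0.34 and 0.17 with Aconiti against vehicle, not called. Graded falls included those of PGC, pepsinogen C (-0.54 ± 0.06), and SPARC, a matrix glycoprotein (-0.45 ± 0.04). PGC (ENSG00000096088, chr6:41736711-41754109) stood at 84.0, 84.3 and 85.1 CPM at 56 µg/mL, against 127, 113 and 127 CPM in vehicle, and SPARC at 65.9, 72.7 and 69.7 CPM, against 92.9, 92.5 and 99.7 CPM in vehicle. In both genes all medium libraries lay below all vehicle libraries, with Aconiti in between at 94.5 to 102 CPM for PGC and 75.4 to 78.2 CPM for SPARC. HEPN1 (-0.41 ± 0.14), the dicarboxylate transporter SLC13A3 (-0.38 ± 0.06) and ODAM (-0.36 ± 0.06) were lower as well. HEPN1 lost its call against vehicle in 7 of 15 alternatives (up to 0.189), and was no longer graded without replicate 3 of 11.2 µg/mL (0.126). Against Aconiti these 5 rises and 5 falls had adjusted p values of 0.117 or more, but without that replicate UAP1L1 (0.0311) and PGC (0.00423) were called.

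Among continuing genes outside the graded class, HES4, a transcriptional repressor (1.32 ± 0.26), PRR7 (0.91 ± 0.15) and CEBPB, a stress-responsive transcription factor (0.75 ± 0.17), had the largest rises against vehicle among genes at 5 CPM or more with no overlap. CEBPB stood at 32.6, 38.8 and 32.1 CPM at 56 µg/mL, against 20.3, 21.1 and 20.2 CPM in vehicle, and at 34.2, 34.5 and 42.2 CPM with Aconiti. Medium and Aconiti libraries overlapped, and the step from 56 to 280 µg/mL was 0.53 ± 0.16 (adjusted p 0.00814). Against vehicle HES4 stood at 1.65 at 11.2 µg/mL and 1.52 with Aconiti, and PRR7 at 1.17 and 1.03, above their values at 56 µg/mL. Between 56 and 11.2 µg/mL HES4 was at -0.33 and PRR7 at -0.26, neither called. Without replicate 3 of 11.2 µg/mL these values were -0.05 and -0.02. With offsets on GC content and length HES4 was at 0.76 and PRR7 at 0.45, and CEBPB at 0.48 was no longer called (0.055). The largest falls of this kind were those of ANGPTL1, a secreted angiopoietin-like protein (-0.68 ± 0.13), the pseudogene HNRNPA3P6 (-0.58 ± 0.10) and SLC6A12, a betaine and GABA transporter (-0.57 ± 0.10). Pseudogene values are uncertain, since reads of near-identical copies are divided between genes.

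The gene lists differed in how many members were called at 56 µg/mL. Among all genes 5.44% were higher and 5.49% lower than in vehicle. At 280 against 56 µg/mL 16.5% were higher and 14.5% lower, and these shares stand beside the lists below. Of 20 tested NRF2 targets 7 were higher and 1 lower than in vehicle (median log2 fold change 0.08, against -0.002 over all genes), and all 20 were higher at 280 than at 56 µg/mL (median 0.77). The higher ones included FTH1, OSGIN1, TKT, AKR1B10, HMOX1 and TXNRD1, each continuing. FTH1, the ferritin heavy chain, stood at 2550, 2520 and 2460 CPM at 56 µg/mL, against 1840, 2060 and 1960 CPM in vehicle (0.36 ± 0.07, adjusted p 4.8e-04), with Aconiti at 2350 to 2450 CPM. OSGIN1, an oxidative stress response gene, was at 52.3, 48.8 and 49.2 CPM, against 41.7, 40.2 and 39.9 CPM in vehicle (0.30 ± 0.08, adjusted p 0.00711). HMOX1, haem oxygenase, was at 63.3, 61.1 and 64.1 CPM, against 56.7, 55.6 and 56.2 CPM in vehicle (0.16 ± 0.05, adjusted p 0.0447). The medium libraries of these 3 genes lay above all vehicle libraries, and the HMOX1 call was lost in 9 of 15 alternatives (up to 0.633). Of these, AKR1B10, an aldo-keto reductase, came nearest to a call against Aconiti (0.24, adjusted p 0.0734), and 4 of the list were called higher than with Aconiti without replicate 3 of 11.2 µg/mL. Against vehicle FTH1 stood at 0.41 at 11.2 µg/mL and 0.30 with Aconiti, both called. HMOX1 stood at 0.16 (called) and 0.14 (not called). For 56 µg/mL against Aconiti FTH1 was at 0.07 and HMOX1 at 0.03, neither called. Of the list 3 were higher and 3 lower than in vehicle at 11.2 µg/mL (11.8% and 10.5% of all genes). With Aconiti 1 was higher and 0 lower (5.51% and 4.38%).

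Of 22 ATF4 targets 5 were higher and 1 lower than in vehicle (median 0.03), and 14 were higher and 1 lower at 280 than at 56 µg/mL (median 0.38). Without replicate 3 of 11.2 µg/mL 5 were higher and 3 lower than in vehicle (9.27% and 8.90% of all genes). TRIB3, a pseudokinase (0.20 ± 0.06), and GDF15, a stress-induced cytokine (0.30 ± 0.08), were among the higher ones, and differed by a further 1.00 and 1.79 between 280 and 56 µg/mL. SLC7A5, the large neutral amino acid transporter, stood at 880, 911 and 903 CPM at 56 µg/mL, against 713, 706 and 727 CPM in vehicle (0.33 ± 0.05, adjusted p 5.1e-05). Its groups did not overlap, and at 280 µg/mL it was at 899, 979 and 911 CPM (0.05 ± 0.05 against 56 µg/mL, adjusted p 0.556). DDIT3, the stress factor CHOP, was at 15.3, 15.6 and 14.6 CPM, against 13.2, 12.8 and 13.7 CPM in vehicle, a log2 fold change of 0.20 ± 0.11 that was not called (adjusted p 0.267). Of 19 ER chaperones and XBP1 targets 1 was higher and 7 were lower at 56 µg/mL (median -0.11), or 3 and 12 without replicate 3 of 11.2 µg/mL. Among the lower ones HSPA5 and HSP90B1 (-0.23 ± 0.04) were continuing. PDIA3, PDIA6, MANF and DNAJB11 were not called between 280 and 56 µg/mL, and DNAJB9, a co-chaperone (-0.36 ± 0.07), turned. The higher member was SDF2L1 (0.53 ± 0.15), at 0.68 with Aconiti against vehicle.

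Of 21 lysosome genes 4 were higher at 56 µg/mL than in vehicle (median 0.02, 5.44% of all genes higher). At 280 against 56 µg/mL 20 were higher (median 0.33, 16.5% of all genes higher). The 4 were SQSTM1, the protective protein CTSA (0.22 ± 0.05), the membrane protein LAMP1 (0.17 ± 0.03) and the calcium channel MCOLN1 (0.30 ± 0.09), all continuing. Of 14 PPAR alpha targets 2 were higher and 2 lower (median 0.01). PLIN2, which coats lipid droplets, stood at 147, 142 and 141 CPM at 56 µg/mL, against 124, 124 and 129 CPM in vehicle (0.18 ± 0.05, adjusted p 0.00671), and was 1.37 higher on the log2 scale at 280 than at 56 µg/mL. ANGPTL4, a secreted inhibitor of lipoprotein lipase, was lower at 56 µg/mL (-0.77 ± 0.20) and turned.

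Of 18 secreted hepatocyte proteins 8 were lower and 0 higher than in vehicle (median -0.13, 5.49% of all genes lower and 5.44% higher). At 280 against 56 µg/mL 10 were lower and 3 higher (14.5% and 16.5% of all genes). The 8 were the fibrinogen chains FGA, FGB and FGG with APOH, SERPINA1, TF, TTR and VTN. FGB stood at 227, 216 and 215 CPM at 56 µg/mL, against 288, 277 and 281 CPM in vehicle (-0.36 ± 0.04, adjusted p 3.5e-07), but Aconiti overlapped with the medium dose, at 209 to 223 CPM. ALB, albumin, was at 10000, 9900 and 9850 CPM at 56 µg/mL, against 10600, 10800 and 11100 CPM in vehicle, without overlap and without a call (-0.12 ± 0.04, adjusted p 0.0612). Without replicate 3 of 11.2 µg/mL ALB was called against vehicle (0.00987) and against Aconiti (0.0258). In that fit 11 of the 18 were lower than in vehicle (8.90% of all genes lower) and 3 lower than with Aconiti (0.438%).

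Cholesterol synthesis genes were among those that turned. At 280 against 56 µg/mL 19 of 24 genes were higher and 1 lower (median 0.44, 16.5% and 14.5% of all genes). At 56 µg/mL 8 were lower than in vehicle and 0 higher (median -0.07, 5.49% and 5.44% of all genes). The lower ones included HMGCS1, IDI1, SQLE, CYP51A1, MSMO1, SC5D and STARD4, and each of these turned. Against Aconiti HMGCS1 and HSD17B7 were lower (median of the list -0.14), and 8 were without replicate 3 of 11.2 µg/mL. With Aconiti 5 of the 24 were higher and 1 lower than in vehicle (median 0.09). HSD17B7 was called higher there (0.13, adjusted p 0.0392), but not called at 56 µg/mL against vehicle (-0.08, adjusted p 0.266). HMGCS1 was not called between 56 and 11.2 µg/mL (-0.07, adjusted p 0.385) nor with Aconiti against vehicle (0.08, adjusted p 0.296). HMGCS1, whose promoter is shown above, stood at 442, 434 and 442 CPM at 56 µg/mL, against 505, 505 and 484 CPM in vehicle and 514, 530 and 537 CPM with Aconiti. The medium libraries lay below both groups and the 280 µg/mL libraries above both, at 667, 628 and 657 CPM. The log2 fold change was -0.18 ± 0.05 against vehicle (adjusted p 0.00841, lost in 2 of 15 alternatives, up to 0.0868 with GC and length offsets), -0.26 ± 0.05 against Aconiti (0.00461, lost in 2 of 14 alternatives) and 0.57 ± 0.05 for 280 against 56 µg/mL. SQLE, squalene epoxidase, was at 333, 331 and 330 CPM at 56 µg/mL, against 403, 384 and 395 CPM in vehicle (-0.25 ± 0.04, adjusted p 8.9e-06). Its 280 µg/mL libraries, at 388 to 420 CPM, overlapped with vehicle. ACSS2, which makes acetyl-CoA for lipid synthesis, was lower than with Aconiti at -0.28 (adjusted p 5.8e-04). It was not called against vehicle (-0.12 ± 0.04, adjusted p 0.0769, and 0.0414 without replicate 3 of 11.2 µg/mL). With Aconiti ACSS2 was higher than in vehicle (0.16, adjusted p 0.0104).

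ASNS, with the amino acid response motif in its promoter, was lowest at 56 µg/mL among the 5 groups. It stood at 36.1, 32.6 and 34.3 CPM at 56 µg/mL, against 43.4, 43.1 and 44.4 CPM in vehicle and 42.0, 39.7 and 45.2 CPM with Aconiti, and at 60.9, 64.1 and 58.3 CPM at 280 µg/mL. No medium library reached any library of the other groups. The log2 fold change was -0.35 ± 0.06 against vehicle (adjusted p 2.1e-04), -0.30 ± 0.06 against Aconiti (0.0176, lost in 5 of 14 alternatives) and 0.83 ± 0.06 for 280 against 56 µg/mL. GPT2, the mitochondrial alanine aminotransferase (-0.29 ± 0.04), and SLC40A1, the iron exporter ferroportin (-0.26 ± 0.04), were likewise lower than with vehicle and Aconiti, and 0.17 and 0.32 higher on the log2 scale at 280 than at 56 µg/mL. Against Aconiti GPT2 lost its call in 5 of 14 alternatives (up to 0.291) and SLC40A1 in 6 of 14 (up to 0.338). Of 13 amino acid transporters 3 were higher and 4 lower at 56 µg/mL, and of the lower ones SLC38A2 (-0.26 ± 0.06) and SLC1A4 (-0.22 ± 0.05) turned. CDKN1A, the cell cycle inhibitor p21, was at 76.4, 79.7 and 83.7 CPM at 56 µg/mL, against 97.1, 95.3 and 93.3 CPM in vehicle (-0.25 ± 0.05, adjusted p 3.0e-04), and at 105, 115 and 112 CPM at 280 µg/mL. Aconiti, at 84.1 to 86.6 CPM, was also below vehicle, and the difference of 56 µg/mL from it was -0.10 ± 0.05 (adjusted p 0.862).

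**Figure D4:**
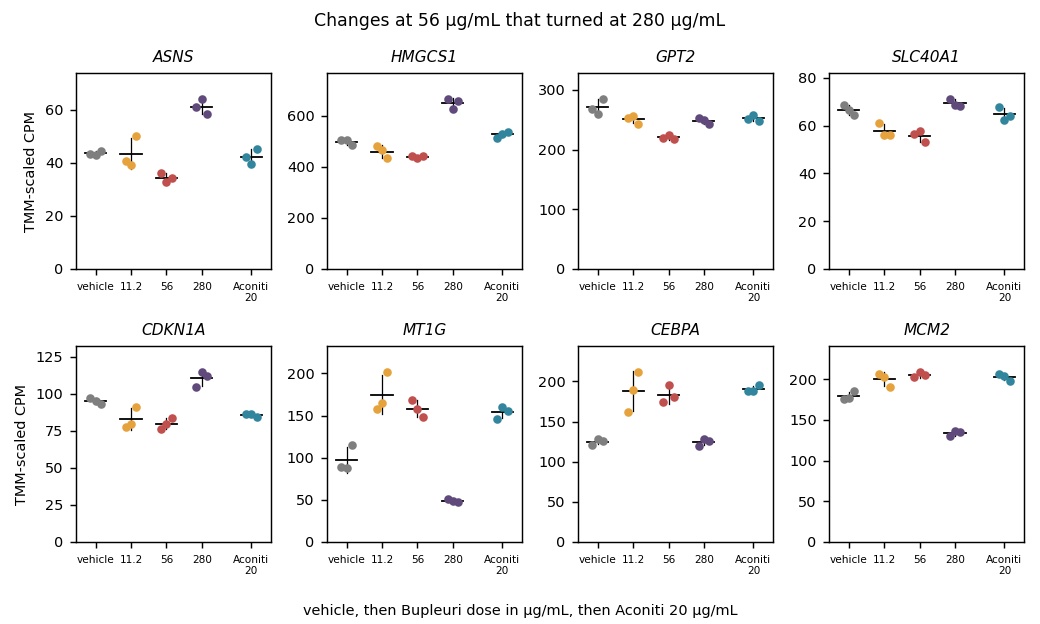
Points are single libraries of 8 turning genes in TMM-scaled CPM, in vehicle, Bupleuri at 11.2, 56 and 280 µg/mL and Aconiti at 20 µg/mL, with the mean and SD of each group. ASNS, HMGCS1, GPT2 and SLC40A1 are lower at 56 µg/mL than with vehicle or Aconiti, as for ASNS at 32.6 to 36.1 CPM against 43.1 to 44.4 CPM in vehicle, whereas MT1G, CEBPA and MCM2 at 56 µg/mL overlap with Aconiti.

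Genes that were higher at 56 µg/mL and turned included metallothioneins and replication genes, and in MT1G, MCM2 and CEBPA Aconiti overlapped with the medium dose. MT1G (ENSG00000125144, chr16:56666731-56668065), a metal-binding protein, was at 168, 158 and 148 CPM at 56 µg/mL, against 88.6, 87.9 and 115 CPM in vehicle (0.70 ± 0.10, adjusted p 1.5e-05), and at 146, 160 and 156 CPM with Aconiti. At 280 µg/mL it was below vehicle, at 50.7, 48.9 and 47.4 CPM. Of 9 metallothionein and zinc transport genes 3 were higher and 1 lower at 56 µg/mL (median 0.12), and 1 was higher and 8 were lower at 280 than at 56 µg/mL (median -1.38). Metallothionein values are uncertain, since reads of close paralogs are divided between genes. Of 20 DNA replication genes 5 were higher and 0 lower at 56 µg/mL (median 0.01, 5.44% and 5.49% of all genes), namely MCM2, MCM4, MCM5, MCM7 and CDT1. At 280 against 56 µg/mL 19 were lower (median -0.44, 14.5% of all genes lower). MCM2, part of the replicative helicase, was at 202, 209 and 205 CPM at 56 µg/mL, against 175, 177 and 185 CPM in vehicle (0.20 ± 0.04, adjusted p 8.7e-04), with Aconiti at 198 to 206 CPM. Of 20 mitosis genes CDC20 alone was called against vehicle (0.17 ± 0.05, lost in 3 of 15 alternatives), and all 20 were lower at 280 than at 56 µg/mL (median -0.66). CEBPA, a hepatocyte transcription factor, was at 174, 196 and 181 CPM at 56 µg/mL, against 121, 128 and 126 CPM in vehicle (0.56 ± 0.08, adjusted p 2.6e-06), with Aconiti at 188 to 195 CPM and the 280 µg/mL libraries, at 120 to 128 CPM, overlapping with vehicle.

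The other named turning genes were KISS1R, the kisspeptin receptor (1.02 ± 0.17), and the forkhead factor FOXQ1 (0.65 ± 0.09) among the rises, and PLOD2, a collagen lysyl hydroxylase (-0.55 ± 0.07), SH3YL1 (-0.50 ± 0.08) and the read-through gene MSANTD3-TMEFF1 (-0.49 ± 0.16, uncertain in its share of reads and not called in 6 of 15 alternatives) among the falls. PLOD2 stood at 129, 123 and 118 CPM at 56 µg/mL, against 180, 167 and 196 CPM in vehicle, and at 123 to 125 CPM with Aconiti. Against Aconiti these 5 genes had adjusted p values of 0.431 or more.

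Changes that looked common to the set made up 494 of the 1822 genes (27.1%), 320 higher and 174 lower. They were not called between 56 µg/mL and either other Bupleuri dose, and were called in the same direction against vehicle at 11.2 µg/mL and with Aconiti. Of all genes 22.3% were called at 11.2 µg/mL (11.8% higher, 10.5% lower) and 9.90% with Aconiti (5.51% higher, 4.38% lower). The rule selects these genes through the shared vehicle libraries, so the likeness of the groups is what the rule asked for. For the 320 the median log2 fold change against vehicle was 0.35 at 280 µg/mL, 0.36 at 56 µg/mL and 0.37 with Aconiti. The lowest doses of extracts of other sets, which the rule did not use but which share the vehicle, stood at 0.30 (Zizyphi), 0.38 (Citri), 0.29 (Cimicifugae) and 0.29 (Yijung-tang). For the 174 the medians were -0.23 at 280 µg/mL, -0.22 at 56 µg/mL and -0.22 with Aconiti, and -0.17, -0.22, -0.18 and -0.16 in the other sets in the same order. The median GC content was 62.2% in the 320 and 42.7% in the 174. With offsets on GC content and length 162 genes met the rule, and without vehicle replicates 1 and 2 in turn, 222 and 310. Without replicate 3 of 11.2 µg/mL 669 genes met it, and 383 genes were in both counts.

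TMEM160 (ENSG00000130748, chr19:47045907-47048630), which encodes a transmembrane protein, had the largest set-shared rise by the same criteria, at 11.2, 13.6 and 13.1 CPM at 56 µg/mL, against 2.04, 4.0 and 2.8 CPM in vehicle (2.10 ± 0.22, adjusted p 4.3e-08). Aconiti, at 11.7 to 14.7 CPM, and 280 µg/mL, at 11.6 to 14.1 CPM, overlapped with the medium libraries. GLTPD2 (1.32 ± 0.24), SLX1B, a nuclease subunit with a near-identical copy and so uncertain (1.07 ± 0.27), and CCDC85B (0.85 ± 0.17) followed. The falls were the pseudogene PTMAP5 (-1.51 ± 0.16), the read-through gene RPS10-NUDT3 (-1.09 ± 0.26), the nuclear copy of mitochondrial DNA MTCO1P12 (-0.94 ± 0.13) and PIK3AP1, a signalling adaptor (-0.47 ± 0.08), of which all but PIK3AP1 are uncertain in the same way. SREBF1, a regulator of fatty acid synthesis, was at 87.1, 83.5 and 86.5 CPM at 56 µg/mL, against 59.5, 61.6 and 60.1 CPM in vehicle (0.50 ± 0.07, adjusted p 4.8e-06), with Aconiti at 91.4 to 94.9 CPM. Of 30 cytosolic ribosomal protein genes 4 were higher and 0 lower (median 0.11), all 4 set-shared, among them RPS28 (0.46 ± 0.12). Without replicate 3 of 11.2 µg/mL 8 of the 30 were higher and 1 lower than in vehicle (9.27% and 8.90% of all genes). MT-CO1, a mitochondrial mRNA, was set-shared and lower (-0.22 ± 0.07, adjusted p 0.0256), at 12600 to 13700 CPM at 56 µg/mL and 13800 to 16100 CPM in vehicle, a call lost in 7 of 15 alternatives (up to 0.18).

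**Figure D5:**
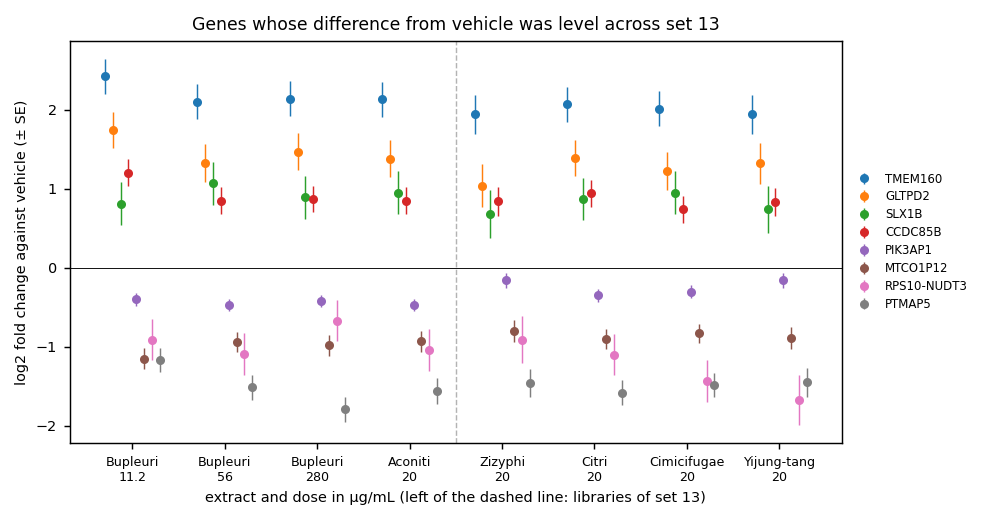
Points are log2 fold changes against vehicle with their SE for the 8 named set-shared genes in 8 groups, the 4 left of the dashed line from set 13 and the 4 right of it the lowest doses of extracts in other sets. All groups share the 3 vehicle libraries, and TMEM160 stands at 2.10 at 56 µg/mL and 2.13 with Aconiti.

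The calls of the remaining lists at 56 µg/mL against vehicle stand beside the 10.9% called among all genes. For 280 against 56 µg/mL 16.5% of all genes were higher and 14.5% lower. Of 11 cytosolic heat shock genes 1 was lower, HSP90AA1 (-0.21 ± 0.06, lost in 6 of 15 alternatives, up to 0.173), and of 16 p53 targets 2 were higher and 3 lower. Of 18 glycolysis and HIF genes 1 was higher and 3 were lower, among them P4HA1, a collagen prolyl hydroxylase (-0.37 ± 0.06), and 15 were higher at 280 than at 56 µg/mL. G6PC1, the last enzyme of gluconeogenesis, was lower (-0.82 ± 0.20). Of 17 actin and serum response genes 2 were higher and 2 lower, with JUNB (0.63 ± 0.12) and JUN (0.31 ± 0.07) continuing. Of 10 YAP targets ANKRD1 was higher (0.20 ± 0.06, lost in 3 of 15 alternatives). CCL20, a chemokine, was higher and continuing (0.56 ± 0.09). Against vehicle CCL20 stood at 0.66 at the lowest Bupleuri dose and 0.56 with Aconiti, and JUNB at 0.54 and 0.59. For 56 µg/mL against Aconiti CCL20 was at -0.01 and JUNB at 0.04, neither called. For 280 against 56 µg/mL they were at 0.47 and 0.60, both called. The histone gene H2AC6 was lower and turned (-0.41 ± 0.10), as did HADHA of fatty acid oxidation (-0.14 ± 0.03). H2AC6 and HADHA each lost the call in 2 of 15 alternatives. The PXR and CAR, bile acid and complex I lists had medians of 0.00, -0.10 and -0.02. Of 11 fatty acid synthesis genes 2 were higher, of 13 hepatocyte transcription factors 2 were higher and 1 lower, and of 13 mitochondrial mRNAs 1 was higher and 1 lower. Of the cell type markers 4 of 10 tested for hepatocytes and 2 of 3 for fibroblasts were lower, among these ACTA2, an actin (-0.22 ± 0.05), and 1 of 4 for leukocytes was higher, CD68, a lysosomal protein (0.36 ± 0.09). Their part in the results was not tested.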

How the data were processed

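The authors deposited a table of expected counts per gene, made with RSEM 1.3.3 after FastQC 0.11.9, Trim Galore 0.6.5 and STAR 2.7.3a on GRCh38, per the submitters' processing notes. No release of the gene annotation is named there, and gene positions printed here come from GENCODE 29. RSEM divides reads between similar genes, and 8.75% of values were not whole. The table holds 60675 genes and 267 columns, of which 207 belong to no sample used here. Libraries came from directional kits with 100 bp paired reads, per the labels' protocols.

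Expected counts were rounded and tested with edgeR 4.0.16 in R 4.3.3 (TMM scaling, filterByExpr by group, robust quasi-likelihood, 1 coefficient per group, Benjamini-Hochberg adjustment over 16675 genes) on 57 libraries of 22 groups, which share one estimate of the spread. The filter left out 44000 genes, and 1783 tested genes have no symbol. Genes were named by rule: among called genes that averaged 5 CPM or more in either group with no overlap between 56 µg/mL and vehicle, the largest rises and falls of each class, 7 and 7 graded, 3 and 3 other continuing, 4 and 4 set-shared and 3 and 3 turning; from each of 32 lists the called member with the lowest p; and CYP1A1, HMOX1, DDIT3, CDKN1A and ALB. Genes called against Aconiti and other list members were named after their values were seen, and some list members are not reported here. The members and lists were chosen with earlier results of these data known. Alternatives were RLE scaling, DESeq2 1.42.0, no filter, a replicate block, fewer libraries, offsets on GC content and length, a 1.5-fold minimum and leaving out libraries. Scripts were tested on simulated counts. No 2 replicates agreed within sampling noise (lowest chi-square per degree of freedom 2.09).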

Additional observations from a re-analysis of the deposited data

Results flagged for a closer look

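Called differences from vehicle lay on opposite sides at 280 and 56 µg/mL for 6 named genes, and the difference between the doses was itself tested with edgeR. Between 280 and 56 µg/mL the log2 fold change was -1.69 for MT1G, -0.75 for CDC20 and -0.62 for MCM2, which were higher than vehicle at 56 µg/mL. It was 0.83 for ASNS, 0.57 for HMGCS1 and 0.47 for CDKN1A, which were lower than vehicle at 56 µg/mL. The part of the 56 µg/mL libraries, which enter both comparisons, was not tested.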

How the results depend on the processing

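Of 1822 genes called at 56 µg/mL against vehicle, 198 reached 1.5-fold. The count was 1022 in a fit of the set and vehicle libraries, 3839 in that fit without replicate 3 of 11.2 µg/mL (added after seeing the data), 4578 with the 6 libraries alone, and 993 to 3028 when a library was left out. Without a filter 1089 were higher and 545 lower. For 280 against 56 µg/mL it was 4231 to 6749 in all alternatives. For 56 against 11.2 µg/mL, 530 became 864 with DESeq2, 2176 without a filter, 830 with GC and length offsets, 20 in the set and vehicle fit, 151 in that fit without replicate 3 of 11.2 µg/mL, and 68 to 4715 with a library left out. Against Aconiti, 23 became 46, 98, 42, 0 (650 at an unadjusted p under 0.05, edgeR) and 198 in the same order, and 4 to 88. Continuing genes numbered 255 and 1092 in the fits of set and vehicle libraries and 266 to 798 with a library left out. Turning genes numbered 193 and 990, and graded genes 10 and 66, in the same fits. Set-shared genes numbered 287 and 854, 162 with offsets, and 222 to 669. With a replicate block 1885 genes were called against vehicle, 5222 for 280 against 56 µg/mL, 851 against 11.2 µg/mL and 23 against Aconiti. Same-numbered medium and vehicle libraries correlated by 0.042, 0.013 and 0.071. Medium replicates 1 and 3 correlated best with the vehicle library of their own number, and medium replicate 2 with another number. Whether the numbers pair libraries was not settled. For 77 named genes 1267 of 1477 alternative values stayed on their side of the threshold, 196 lost the call and 14 gained it. No called value changed direction, while FADS2, not called against vehicle (0.02), was at -0.02 with offsets. Causes of these shifts were not tested. With 3 libraries a group, small differences of low genes may have been missed, and their detection was not tested.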
